A study of Mus musculus with 8 samples.

Results

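Interferon-stimulated monocytes and macrophages are the 670 cells with the highest levels of the interferon response genes Rsad2, Cmpk2, Ifit1 and Ifit3 among 8375 mainly myeloid cells. The 8375 came from 11430 immune cells deposited from 8 mouse mammary tumors. The 670 cells were chosen by rule, and no myeloid marker was required. The 8375 cells, called M here, had 500 to 6000 detected genes, under 10% mitochondrial UMIs (unique molecular identifiers, each standing for 1 captured RNA molecule), at least 2000 UMIs, at most 1 UMI over Cd3d, Cd3e and Cd3g, and no UMI of the NK cell receptor gene Ncr1. Each cell was scored by the UMIs of the 4 genes per 10,000 UMIs of the cell, and the highest 8% of M over all mice were taken as members, which is 5.86% of all deposited cells. Since the score genes chose the members, their levels are given as a description only and they enter no comparison.

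The tumors grew in female C57BL/6 mice from the parental murine triple-negative mammary carcinoma line E0771 (2 mice analysed here, mice 1 and 3) or from E0771-Res1 or E0771-Res2 (3 mice each), implanted in the inguinal mammary fat pad and collected on day 18. Both resistant lines came from parental tumors that grew back once paclitaxel plus anti–PD-1 had ended, so each resistant group stands for 1 derived line. No treatment of the 8 mice and no ages were given in the labels. CD45+ cells were sorted, tagged by mouse with oligonucleotide-labelled lipids, and sequenced as 3′ single-cell RNA libraries. The libraries held 5036667 to 18894504 UMIs and shared no cell barcodes between mice, and each mouse contributed 38 to 131 members with 345789 to 946497 UMIs in all.

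Interferons alert cells to infection or damage. Type I interferons bind the Ifnar1 and Ifnar2 receptor and act through the kinases Jak1 and Tyk2 and a transcription factor complex with Irf9, which binds interferon-stimulated response elements near antiviral genes, whereas interferon gamma from T cells and NK cells acts through Ifngr1 and Ifngr2 and induces guanylate-binding proteins and antigen presentation. Rsad2 (viperin) makes an antiviral nucleotide, Cmpk2 is a nucleotide kinase encoded beside it, and Ifit1, of the same family as Ifit3, binds foreign RNA. In tumors, monocytes and macrophages in this state are known for chemokines that attract T cells and for ligands that restrain or sustain them.

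The 4 score genes lie at 2 loci. In the mm10 assembly Rsad2 and Cmpk2 are neighbors on chromosome 12 with starts 12665 bases apart, and Ifit1 and Ifit3 share a 99459-base stretch of chromosome 19 with Ifit2, Ifit3b and Ifit1bl2, which Ifit1bl1 overlaps. Promoter windows from RefSeq on GRCm38.p6 (the mm10 assembly), running from 250 bases before to 50 bases after each gene's start, were searched for GAAANNGAAA on both strands (TTTCNNTTTC on the other strand), the core letters of the response element. The stretches around the matches are printed below for 3 score genes and for 3 genes outside the score that recur in the results, 5′ to 3′ on the gene's own strand, with the matching letters in capitals.
Rsad2, chr12:26456538-26456597, minus strand: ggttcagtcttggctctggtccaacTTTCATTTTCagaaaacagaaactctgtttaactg
Ifit1, chr19:34640760-34640838, plus strand: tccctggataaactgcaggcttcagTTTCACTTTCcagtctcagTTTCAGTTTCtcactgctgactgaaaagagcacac
Ifit3, chr19:34583348-34583441, plus strand: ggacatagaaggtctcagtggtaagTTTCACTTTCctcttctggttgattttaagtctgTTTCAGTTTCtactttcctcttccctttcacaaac
Isg15, chr4:156200850-156200921, minus strand: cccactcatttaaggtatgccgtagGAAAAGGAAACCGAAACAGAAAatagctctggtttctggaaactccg
Cxcl10, chr5:92349068-92349127, minus strand: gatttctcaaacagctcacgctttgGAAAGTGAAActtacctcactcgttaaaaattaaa
Gbp2, chr3:142620579-142620638, plus strand: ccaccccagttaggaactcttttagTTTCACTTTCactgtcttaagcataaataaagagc

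Ifit1 and Ifit3 each carried 2 separate matches, and the 3 matches of Isg15 overlapped one another. All 6 stretches lie upstream of the annotated start, at positions from −238 to −25. Cmpk2 had no match, which says only that these letters are not in that window. Over all genes with a window, 1079 of 27025 (3.99%) held the motif. Among the genes that were higher in members by the rule given below it stood in 70 of 385 with a window (18.2%), among the genes that were lower in 4 of 211 (1.90%), in 27 of 56 type I interferon effectors (48.2%) and in 11 of 14 interferon gamma-induced genes (78.6%). The windows of 20 NF-kB response genes and of 8 MHC class II genes held none, as did those of 17 cell cycle, 13 dissociation stress and 11 monocyte genes. With 3.99% over all genes, lists this short can hold none without differing from other genes. Of 20 MHC class I and peptide loading genes 5 held the motif, and of 20 interferon genes themselves 11. These are counts of letters, not of bound sites.

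The score fell off without a gap. The last member had a score of 52.1 (42 score UMIs of 8056) and the first cell outside had 36 score UMIs of 6916, which rounds to the same score. Within 10% of the limit lay 98 members above it and 93 cells below it, so the members are the end of a range. The median score was 80.8 in members and 3.86 in M, 1798 cells of M (21.5%) had no score UMI, and members held 47.7% of all score UMIs of M.

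Each score gene was described in members and in the rest of M, the 7705 other cells, over the summed UMIs of all mice. Rsad2 stood at 42.4 UMIs per 10,000 in members and 2.83 in the rest, and Ifit3 at 26.8 and 3.11. Ifit1 stood at 12.8 and 1.26, and Cmpk2 at 6.99 and 0.469. When each cell's UMIs were divided at random in 2 parts and members were chosen on one part, the other part, which the choice had not used, gave 40.7 against 2.95 for Rsad2 and 26.1 against 3.19 for Ifit3, and 90.9% of the members were shared.

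Single UMIs of these genes were also found in cells outside the members, and how many of those came from free RNA was not tested. Rsad2 had a UMI in 53.8% of the rest of M and in 50.4% of T cells, against 100% of members. For Cmpk2 the shares were 92.1% of members, 21.6% of the rest and 25.5% of T cells. The median depth was 7064 UMIs in members, 7362 in the rest and 8951 in T cells.

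Several genes that the score did not contain fell with its rank from band to band. Cxcl10, a chemokine that attracts activated T cells, went from 111 UMIs per 10,000 in the highest 2% of M through 93.9 (2% to 4%), 62.2 (4% to 8%), 37.1 (8% to 16%) and 16.5 (16% to 32%) to 4.96 (32% to 64%) and 2.14 in the lowest 36%. Isg15, a ubiquitin-like antiviral protein, went from 99.8 to 5.84 and Ifit2 from 24.7 to 0.347 between the same ends. Ifitm3, which blocks viral fusion, spanned a narrower range, from 78.1 to 32.9. The monocyte gene Ly6c2 went from 40.3 down to 10.6 and the complement gene C1qa from 6.48 through 4.68 (2% to 4%) up to 20.4. Not every gene went 1 way throughout: Usp18 rose from 6.76 in the highest 2% to 7.10 in the next band.

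**Figure D1:**
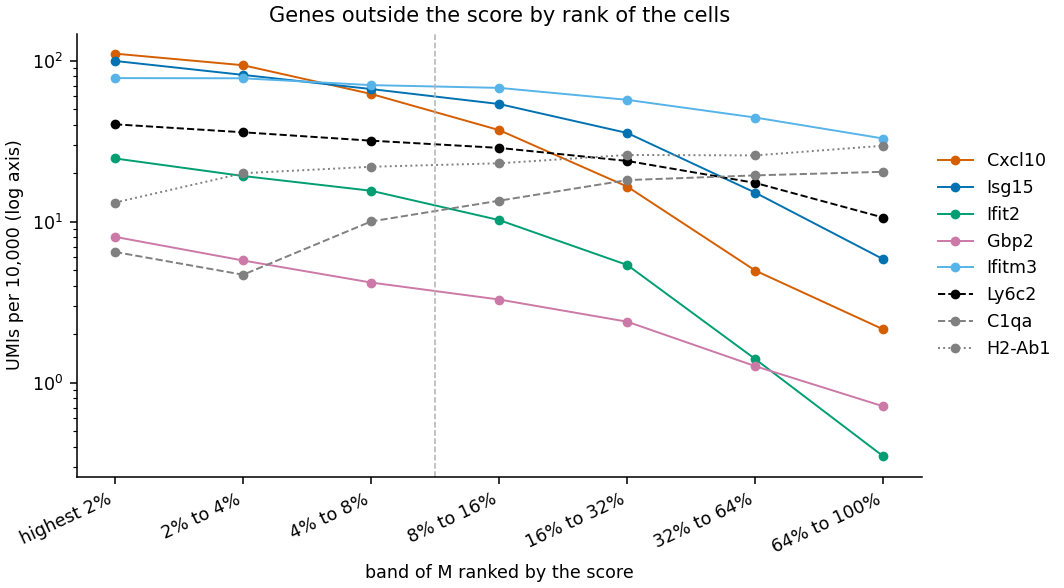
UMIs per 10,000 (log axis) of 8 genes outside the score in 7 bands of M ordered by score, with the limit of the members as a dashed line. The 5 interferon response genes and Ly6c2 step down from the highest band to the lowest, with Cxcl10 at 111 and 2.14 at the ends, while C1qa and H2-Ab1 end higher than they begin.

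The cells were then checked against marker lists. In the sum over mice the monocyte list (8 genes, led by Plac8) held 95.5 UMIs per 10,000 in members and 49.1 in the rest, higher in members in 8 of 8 mice, and the macrophage list (9 genes, led by Apoe) held 63.0 and 115, lower in 8 of 8. Both programs were therefore present in the members, with more monocyte and less macrophage RNA than in the rest of M. The conventional dendritic cell list held 0.748 against 1.83, with Cd209a the most abundant at 163 UMIs over all members and Flt3 at 2. The T cell list held 0.532 against 0.613, the NK list 0.494 against 0.861, the B cell list 0.0630 against 0.200, the tumor epithelial list 0.0366 against 0.0654 with Krt7, Krt18 and Krt19 at 0, the stromal or endothelial list 0.106 against 0.231, and the erythroid list 0.0203 against 0.0897, while the mast and basophil markers were at 0 in members.

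Neutrophil markers summed to 1.34 in members and 1.20 in the rest. They were higher in members in only 3 of 8 mice, and the means over mice were 1.22 and 1.31. In E0771-Res1 mouse 1 they stood at 2.48 and 0.834. Of these markers in members, Csf3r, a receptor that monocytes also express, gave 417 UMIs, S100a9 126, Mmp8 66 and S100a8 45. Camp was at 0, Ly6g and Retnlg at 1 and Cxcr2 at 2. The plasmacytoid dendritic cell list was higher in members in 8 of 8 mice (1.53 against 0.869), and 733 of its UMIs were Tcf4, a transcription factor gene also used by other cells, while Cox6a2 stood at 15, Ccr9 at 6, Siglech at 1 and Klk1 at 0. A rule for cells of other types marked 133 members (19.9%) and 1717 other cells of M (22.3%). Without Csf3r in that rule it marked 21 (3.13%) and 638 (8.28%). Counts of changed genes without these cells are given at the end, and the part of the markers was otherwise not tested.

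Members made up a similar share of M in most mice (the plot of shares by mouse). The 2 E0771 mice had 52 of 861 cells (6.04%, exact 95% binomial interval 4.54 to 7.84) and 63 of 478 (13.2%, 10.3 to 16.5), the lowest and the highest of the 8. The E0771-Res1 mice had 8.20%, 7.84% and 7.55%, and the E0771-Res2 mice 7.56%, 7.93% and 8.03%, so that all 6 resistant mice lay between the 2 E0771 mice. The intervals cover counting error only.

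The mean share was 9.61% ± 5.05 (SD, n = 2) in E0771 and 7.85% ± 0.258 (n = 6) in the resistant tumors, a difference of −1.76 percentage points (two-sided exact permutation p = 0.357, adjusted p = 0.933 over 4 comparisons, with 0.0357 the smallest p this design allows). The difference turned to 1.63 without E0771 mouse 3 and to −4.86 without E0771 mouse 1. E0771-Res1 and E0771-Res2 differed from each other by −0.0263 points (exact permutation p = 1). The share was defined by the score genes, over all mice together, so it measures the upper end of those genes.

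Cells with little C1q, the complement protein of mature macrophages, were more often members. M was divided in 4 equal bands by the UMIs of C1qa, C1qb and C1qc per 10,000, and the mean share of members over the 8 mice was 10.7% ± 3.11 (SD) in the lowest band, 10.0% ± 2.00 in the next, 8.23% ± 2.44 in the third and 3.63% ± 2.15 in the highest. The lowest band exceeded the highest in 8 of 8 mice, by least in E0771-Res1 mouse 3 (6.39% and 6.34%) and by most in E0771-Res2 mouse 1 (14.0% and 1.40%). Members were present in every band of every mouse.

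**Figure D2:**
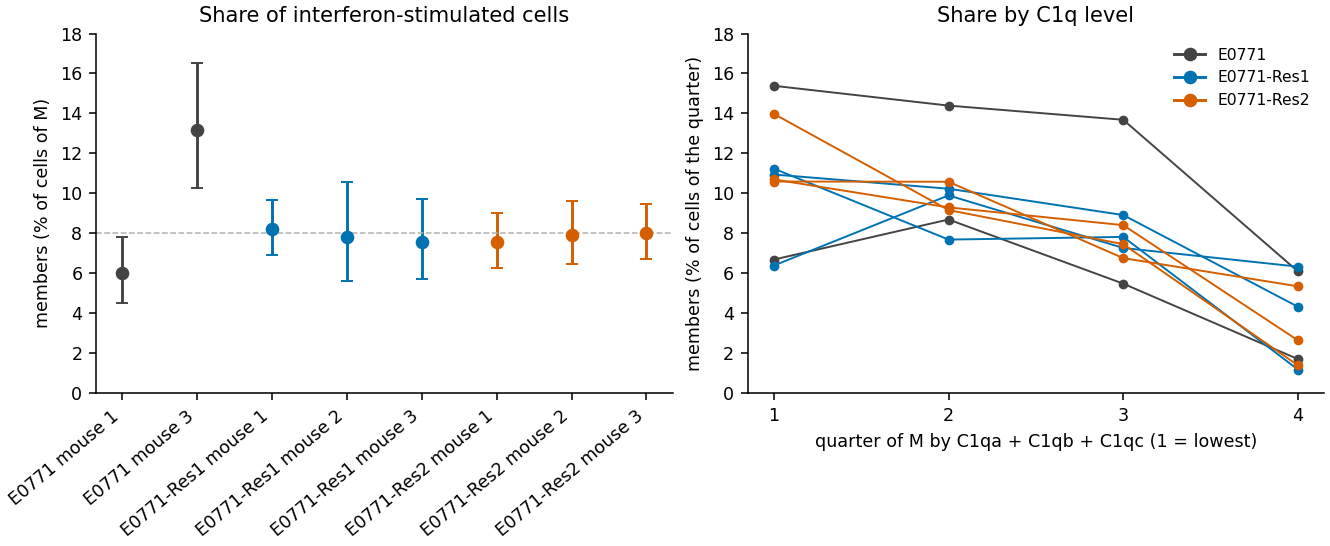
Left, members as a percentage of the cells of M in each of the 8 mice, with exact 95% binomial intervals and the 8% set by the rule as a dashed line. Right, the same share in the 4 bands of M by C1q level, 1 line per mouse. All 6 resistant mice sit between the 2 E0771 mice, and the highest C1q band is below the lowest in all 8 mice.

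The RNA of members was next compared with that of the rest of M within each mouse. UMIs were summed per mouse, scaled to a common library total (CPM) over the genes kept for comparison, and differences are log2 CPM of members minus rest, averaged over 8 mice. The choice of members used these same cells, so the values describe the members and carry no test. By the rule used here a gene was higher or lower in members when the mean difference was at least 1 on the log2 scale with the same sign in 8 of 8 mice. This held for 467 of 8250 genes higher (5.66%) and 264 lower (3.2%), and the median over all genes was −0.14.

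The type I interferon effectors, mainly genes that make a cell resistant to viruses, were higher nearly throughout. Lists overlap in part: this list also holds the chemokine Cxcl10 and the death ligand Tnfsf10, which are counted again with their own lists below. Of the 70 members of this list that were measured among 73, 64 were higher by the rule, none lower, and 70 were higher in 8 of 8 mice, with a median difference of 1.65. Isg15 ranged from 8691 to 12034 CPM in members (median 10231) and from 1705 to 2662 in the rest (median 2024), so that every mouse's members lay above every mouse's rest, with a mean difference of 2.34 ± 0.36 (SD, n = 8). Irf7, the transcription factor that amplifies type I interferon production, ranged from 2656 to 3688 in members and from 931 to 1422 in the rest (1.50 ± 0.25). Usp18, which removes Isg15 and dampens the receptor, stood at a median of 785 CPM against 133 (2.57 ± 0.25).

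Other effectors differed by more or by less. Ifit1bl1 and Ifit3b, neighbors of 2 score genes, differed by 3.77 ± 0.36 and 3.55 ± 0.35, and reads of Ifit3b and Ifit3 may be shared because their sequences are closely related. Ifit2 ranged from 1911 to 2876 CPM in members and from 180 to 327 in the rest (3.24 ± 0.34). Among the smaller differences in the list were those of Irf9 (0.60), Ly6e (0.71), Ifi27l2a (0.76), Bst2 (0.94) and Ifitm3 (0.99), all still positive in 8 of 8 mice. When every cell was thinned to 2000 UMIs, members had a median of 39 to 41 detected genes of 71 effectors per mouse and the rest 17 to 22 (54 to 60 and 33 to 43 before thinning).

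Interferon gamma-induced genes were also higher. The list is named for interferon gamma, but 11 of its 14 genes with a promoter window held the response element letters given above. Which interferon induced these genes in the members was not tested. Of 19 measured guanylate-binding proteins, immunity-related GTPases and targets, 16 were higher by the rule and 1 lower, with a median of 2.05. Gbp5, which assembles on microbes and vacuoles, ranged from 344 to 587 CPM in members and from 32.7 to 71.1 in the rest (3.10 ± 0.42), and Gbp2, Igtp, Irgm1 and Iigp1 differed by 2.23, 2.08, 2.05 and 2.39. The exception was Ciita, the master activator of MHC class II genes, at a median of 16.8 CPM in members and 34.4 in the rest (−1.28 ± 1.13, lower in 8 of 8 mice).

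Sensors of foreign nucleic acid were higher for 10 of 17 measured genes (median 1.15). These included the RNA helicases Ifih1 (2.35) and Ddx58 (2.08), the endosomal RNA receptor Tlr3 (2.24), the DNA sensor Cgas (1.46) and the inflammasome sensor Aim2 (1.20). The adaptor gene Tmem173 (STING) differed by 0.56, and the adaptor Mavs, at low counts, by −2.18 with 1 mouse higher.

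None of the 4 receptor genes was higher by the rule, whereas several genes downstream of them were. Among 20 genes of the receptors and the Jak-Stat pathway, 7 were higher and 1 lower (median 0.36). Ifnar1 differed by 0.15 (higher in 5 of 8 mice), Ifnar2 by −0.09 and Ifngr2 by −0.16. Ifngr1, the ligand-binding chain of the interferon gamma receptor, ranged from 51.3 to 103 CPM in members and from 130 to 192 in the rest, lower in 8 of 8 mice (−1.06 ± 0.30), with no overlap between the ranges. Downstream, Jak2 and Irf1 differed by 1.32 and 1.24, and Socs1, a feedback inhibitor of Jak kinases, by 2.08 ± 0.35.

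Chemokines and ligands for lymphocytes were higher for part of their lists. Of 7 measured interferon-inducible chemokines, 4 were higher (median 1.17). Cxcl10 ranged from 7925 to 14388 CPM in members and from 611 to 1297 in the rest (3.52 ± 0.47), which is no overlap. The related T cell attractant Cxcl9 differed less and varied more between mice (1.33 ± 0.83), Ccl12 and Ccl2, which attract monocytes through Ccr2, differed by 1.56 and 1.17, Ccl5 by 0.99, and Ccl8 by −1.24 with 1 mouse higher. Of 10 other chemokines, 2 were higher, the inflammatory chemokines Ccl4 (2.07 ± 0.32) and Ccl3 (1.20), and 1 was lower, Pf4, while the neutrophil attractant Cxcl2 differed by −0.03 (median of the list −0.28).

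Of 20 ligands and cytokines that act on lymphocytes, 12 were higher and none lower (median 1.19). Il15, which sustains NK cells and memory T cells, ranged from 219 to 367 CPM in members and from 30.9 to 49.9 in the rest (2.83 ± 0.35), and Il15ra, which presents it in trans, differed by 2.93 ± 0.40. Cd274, which encodes the inhibitory ligand PD-L1, ranged from 381 to 568 CPM against 140 to 195 (1.56 ± 0.28). Both ligands were thus above the rest in every mouse, as were the costimulators Cd40 (1.98) and Cd86 (1.13), whereas Cd80 differed by 0.01.

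Among lower-abundance cytokines, the death ligand Tnfsf10 (TRAIL) ranged from 80.3 to 117 CPM in members and from 6.68 to 11.3 in the rest (3.31 ± 0.20), and Il27, which shapes T cell responses, from 54.8 to 153 and from 8.91 to 17.6 (2.97 ± 0.71). Il6 stood at 47.9 CPM against 4.5 in the mean over mice (3.23). Il18 differed by 1.69, its fellow family member Il1rn, an antagonist of interleukin 1, by 1.46, and Tnf by 0.86. The NF-kB inflammatory list as a whole had 2 of 24 genes higher (Ccl3 and Ccl4, also counted above), none lower and a median of 0.49. Of the 24, 11 were higher in 8 of 8 mice, against 14.8% of all genes.

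Antigen presentation genes were taken by class. In the MHC class I and peptide loading list 3 of 24 genes were higher by the rule, namely the transactivator Nlrc5 (1.36), the nonclassical gene H2-T22 (1.20) and the peptide transporter Tap1 (1.18), and 15 were higher in 8 of 8 mice against 14.8% of all genes, with a median of 0.62. The abundant B2m and H2-K1 differed by 0.39 and 0.24. MHC class II, which presents to CD4+ T cells, had 0 of 11 genes higher and 1 lower (Ciita, counted above), 1 of 11 lower in 8 of 8 mice where 10.6% of all genes were, a median of −0.40, and H2-Aa and Cd74 at −0.31 and −0.10.

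Part of the monocyte genes were higher and part of the macrophage genes lower in members. Of 15 monocyte genes 4 were higher and none lower by the rule (8 higher in 8 of 8 mice, against 14.8% of all genes, median 0.62), and Ly6c2 ranged from 3763 to 5846 CPM in members and from 1303 to 3002 in the rest (1.26 ± 0.44). The matrix proteoglycan Vcan differed by 1.46. For Ly6c2 the members of all mice lay above the rest of all mice. Plac8, which marks blood monocytes, differed by 1.23.

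Of 17 macrophage genes 4 were lower (C1qa, Folr2, Gas6 and Pf4) and 1 higher, the receptor tyrosine kinase Axl at 1.02, with a median of −0.46, and 7 were lower and 3 higher in 8 of 8 mice, against 10.6% of all genes lower and 14.8% higher. C1qa ranged from 375 to 2021 CPM in members and from 1518 to 2935 in the rest (−1.23 ± 0.70), and these ranges overlapped although the sign was the same in 8 of 8 mice. Folr2, the folate receptor of resident-like macrophages, differed by −1.54, the platelet-factor chemokine Pf4 by −1.90 ± 1.16, and Apoe by −0.69. The fractalkine receptor gene Cx3cr1 ranged from 2.96 to 39.7 CPM in members and from 41.6 to 83.9 in the rest (−1.76 ± 0.94).

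Few genes of further programs passed the rule. The lipid-associated macrophage list had 1 of 20 genes lower, the lipase gene Lpl (−1.02 ± 0.47), with Trem2 at −0.93 and a median of −0.49. In that list 6 of 20 were lower in 8 of 8 mice, against 10.6% of all genes. Cell cycle genes had none of 16 past the rule (median −0.73), and hypoxia and glycolysis 1 of 19 lower, the prolyl hydroxylase gene Egln3 (median −0.21). Dissociation stress genes had none of 15 past the rule (median 0.18), but 7 were higher in 8 of 8 mice, against 14.8% of all genes. The part of handling stress in the differences was not tested. The list of inflammation resolution and eicosanoid genes, which covers lipid mediators and their receptors, had 1 of 12 higher, the formyl peptide receptor gene Fpr2 at 78.3 to 152 CPM in members and 43.6 to 61.1 in the rest (1.10 ± 0.41), with a median of 0.22.

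Other genes were named by the size of their difference among genes with a mean of at least 50 CPM in members or rest. Higher in members and on none of the lists were Rilpl1 (3.38), Lhx2 (2.77, a LIM homeobox factor) and Setdb2 (2.58, a histone methyltransferase-like protein). The type I effectors Trim30c (2.68), Slfn9 (2.64) and Oasl1 (2.57), the last a 2′-5′ oligoadenylate synthetase-like gene, were named by the same rule and are already counted above. Lower were Rab3il1 (−1.82), Hmgn1 (−1.39, a nucleosome-binding protein), Mtss1 (−1.34), the mitochondrial C1qbp (−1.09) and Mrpl12 (−1.04), the last a component of mitochondrial ribosomes.

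**Figure D3:**
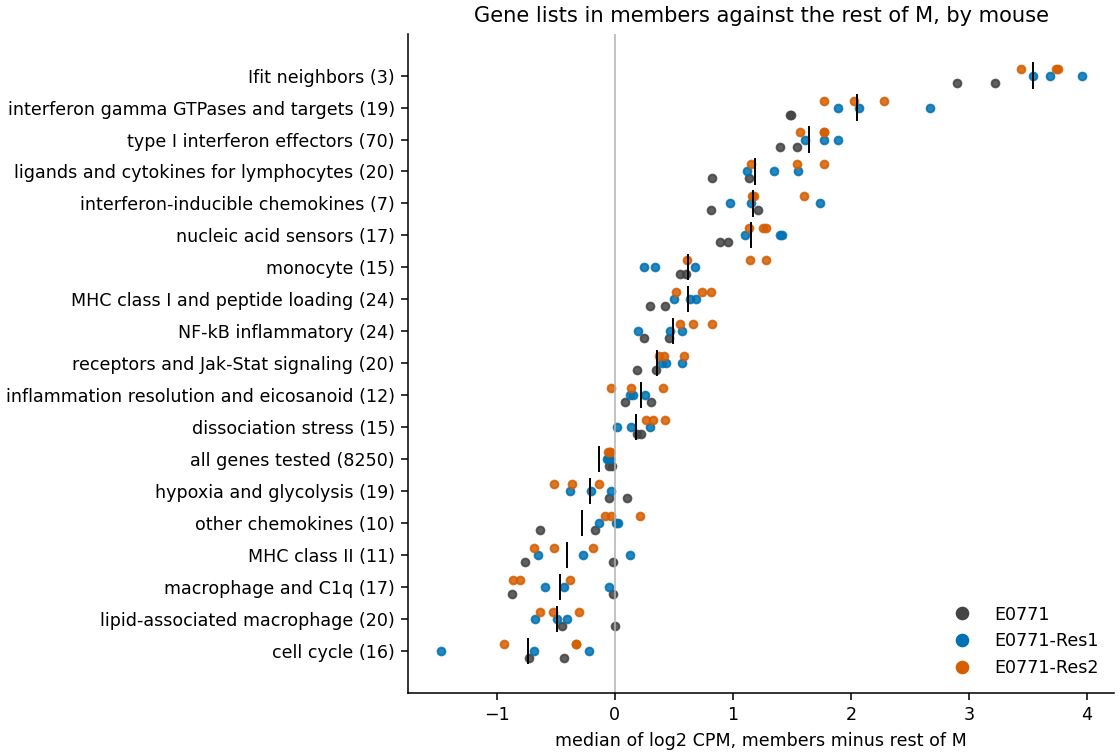
Median over the genes of each list (number measured in parentheses) of log2 CPM in members minus rest of M, 1 point per mouse by tumor group, with a black bar at the median of the gene means over mice. The type I interferon effectors lie between 1.40 and 1.89 in all 8 mice, while the macrophage and MHC class II lists lie around or below 0.

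Apart from Ifnb1 and Ifng, no gene for an interferon itself had more than 11 UMIs in members or more than 3 in the other cells of M. Of 21 interferon genes in the files, 14 had no UMI in M. Ifnb1, the interferon that macrophages themselves make, had 27 UMIs in 4 of 670 members, 48 UMIs in 29 of 7705 other cells of M and 10 UMIs in 9 cells outside M. A gene with no UMI in any member could still have one in up to 0.448% of members at this counting error, and the count limits cells with a UMI rather than cells expressing the gene.

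One member, from E0771-Res1 mouse 1, held 22 Ifnb1, 11 Ifna2 and 1 Ifna16 UMIs among its 5686 UMIs, which was 81.5% of all Ifnb1 UMIs in members. It ranked 592 of 670 members by score, with 27 Rsad2, 40 Cxcl10 and 7 Isg15 UMIs, and it had no UMI of C1qa, Siglech, Ccr9 or Flt3. Of 6 cells of M with at least 3 interferon UMIs of the type I genes, 2 were members. Ifng, the interferon of lymphocytes, had 24 UMIs in 23 members and 372 in 255 other cells of M, against 1756 in 1102 T cells and 855 in 309 NK cells.

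Within the members, tumors were compared over mice with edgeR's quasi-likelihood test on UMIs summed per mouse, with Benjamini-Hochberg adjustment over 5499 genes, and a gene changed when its adjusted p was under 0.05. The rule for members did not use the tumor groups. All 3 comparisons came from 1 fit, and the first 2 share the E0771 mice. The mice are separate animals, but each group is 1 tumor line. The CPM given for the tumors and for the distance between members and rest were each scaled over the libraries and genes of their own fit, so they differ somewhat from the CPM given above for the same members.

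Interferon response genes were compared between tumors with a limit set by the choice of members. One score limit over all mice held the score genes of the members high in every tumor, so genes that vary with the score had little room to differ between groups, and these counts say nothing of the interferon response of the tumors as a whole. The type I effector list had 0 of 70 genes changed in E0771-Res1 against E0771, where 0.0182% of all genes changed, and 1 of 70 in E0771-Res2 against E0771 (0.382% of all genes) and against E0771-Res1 (0.527%), in both the higher Slfn4, a Schlafen family gene of myeloid cells, and its median differences were 0.04, 0.02 and −0.00. Isg15 stood at 8940 and 8001 CPM in the E0771 mice, at 9927, 9259 and 9492 in the E0771-Res1 mice and at 10859, 11095 and 9587 in the E0771-Res2 mice. The E0771 mice were the lowest, and the E0771-Res2 and E0771-Res1 mice overlapped (0.14 ± 0.10 SE, adjusted p = 0.697 by edgeR). Of the interferon gamma-induced genes, edgeR called 0 of 17 in each of the 3 comparisons, with 1, 1 and 3 at an unadjusted p under 0.05 and 0, 0 and 1 called by DESeq2. For the type I effectors, in the same order, there were 3, 10 and 8 of 70 genes at an unadjusted p under 0.05 and 0, 2 and 1 called by DESeq2. Over all 5499 genes 310, 552 and 520 were at an unadjusted p under 0.05. For the interferon-inducible chemokines in E0771-Res1 against E0771, edgeR called 0 of 7 and DESeq2 called 1, with 3 at an unadjusted p under 0.05 and 7 of 7 fitted values positive (median 1.00), where 2840 of 5499 genes in all had a positive value (median 0.01).

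The same lists in the rest of M, tested on their own over 10741 genes, gave other counts. There 23 of 70 type I effectors fell in E0771-Res2 against E0771 (median −0.37), as did 3.28% of all genes, and 2 of 70 fell in E0771-Res1 against E0771 (median −0.40), as did 0.0652% of all genes. Of 21 interferon gamma-induced genes 12 fell in E0771-Res2 against E0771 (median −0.69) and 0 in E0771-Res1 against E0771 (median −0.57). A difference between those counts and the counts in members was not tested as such, and the rest had 7705 cells against 670. The test of individual genes follows the tumor comparisons.

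E0771-Res1 members differed from E0771 members in 1 of 5499 genes (0.0182%), the neutrophil-attracting chemokine Cxcl2. Cxcl2 stood at 1480 and 1371 CPM in the E0771 mice and at 3152, 4842 and 2814 in the E0771-Res1 mice, with no overlap, as for 20.9% of all genes in this comparison (1.34 ± 0.21 SE, adjusted p = 0.0339). It passed in 9 of 21 other settings. With either E0771 mouse left out no gene passed, but the group then holds 1 mouse, which is assumed to vary like the other groups, so this bears little on the call. At an unadjusted p under 0.05 there were 310 genes, and DESeq2 called 1 gene, not Cxcl2. In the rest of M, 12 of 10741 genes changed in this comparison. Cxcl2 was not among them but differed there by a similar amount (1.19 ± 0.25 SE, adjusted p = 0.0922 by edgeR).

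E0771-Res2 members differed from E0771-Res1 members in 29 genes (0.527%), 16 higher (0.291%) and 13 lower (0.236%). The count was 10, 14 and 18 without E0771-Res2 replicates 2, 3 and 1. The largest group of lower genes was MHC class II: 5 of 7 measured genes of the list fell (Cd74, H2-Aa, H2-Ab1, H2-Eb1 and H2-DMb1), with a median of −1.05 against 0.00 over all genes. Cd74, the invariant chain that guides class II molecules to endosomes, stood at 7807, 6611 and 8326 CPM in the E0771-Res1 mice and at 3646, 3948 and 3395 in the E0771-Res2 mice, with no overlap, as for 15.2% of all genes (−1.05 ± 0.11 SE, adjusted p = 8.65e-05). The E0771 mice, at 6178 and 7089, lay with E0771-Res1.

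H2-Ab1, the class II beta chain, stood at 3648, 2690 and 3351 CPM in E0771-Res1 and at 1275, 1778 and 1385 in E0771-Res2, again without overlap (−1.13 ± 0.17). In the rest of M 6 of 11 class II genes fell in the same comparison (median −0.73), against 1.86% of all genes. The count of 5 fell to 2 without E0771-Res2 replicate 1, without E0771-Res2 replicate 3, and with other score genes, while Cd74 passed in 21 of 21 settings.

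Dendritic cells are rich in class II RNA. Their markers in members summed to 0.701 and 1.40 UMIs per 10,000 in the E0771 mice, 0.475, 0.521 and 0.205 in the E0771-Res1 mice and 0.654, 1.57 and 0.465 in the E0771-Res2 mice. With cells of other types left out, 5 of 6 measured class II genes were lower (median −1.28). When Csf3r was not used to find those cells, 5 of 6 were lower (median −1.24). The part of dendritic cells alone in the class II difference was not tested. The median depth of members was also lower in E0771-Res2 (6824, 5721 and 5621 UMIs per cell) than in E0771-Res1 (6854, 9134 and 8089), and after thinning to 2000 UMIs per cell 5 of 7 class II genes were lower (median −1.04).

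Gpnmb (chr6:49036546-49070929), a transmembrane glycoprotein of lipid-loaded macrophages, had the smallest adjusted p of this comparison. It stood at 80.2, 84.4 and 70.6 CPM in the E0771-Res1 mice and at 521, 346 and 332 in the E0771-Res2 mice, with the E0771 mice between them at 173 and 153 (2.35 ± 0.20 SE, adjusted p = 2.45e-06). The cysteine protease gene Ctsk (2.11 ± 0.33) and Syngr1 (1.39 ± 0.30) rose too, and 3 of 19 lipid-associated genes were higher in this comparison, with a median of 0.37, and 6 of 20 in the rest of M, where 1.98% of all genes were higher.

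Gdf15, a stress-induced cytokine, stood at 67.0, 120 and 107 CPM in E0771-Res1 and at 304, 230 and 229 in E0771-Res2 (1.48 ± 0.21), and the BH3-only gene Pmaip1 (Noxa), the kinase gene Plk2 and the AMPK-pathway gene Fnip2 rose by 1.14, 0.72 and 1.08. Ccl12 fell, from 1631, 2360 and 1201 CPM to 677, 802 and 650 (−1.28 ± 0.19), with the E0771 mice at 895 and 716. The mannose receptor gene Mrc1 fell by 1.02 on the log2 scale, the cell surface proteoglycan gene Sdc4 by 1.13, Rab32 by 1.03 and Ptgs2, the inducible cyclooxygenase, by 0.87. Ccl12, Cd74, Gdf15, Gpnmb and Sdc4 passed in 21 of 21 other settings, Fnip2 in 16, Plk2 in 12, Pmaip1 in 10, Ptgs2 in 9, Mrc1 in 8 and Rab32 in 7. Dissociation stress genes had 0 of 15 called by edgeR and 1 by DESeq2, with 13 of 15 positive, 6 at an unadjusted p under 0.05 and a median of 0.23, against 2769 of 5499 positive and 520 at that p over all genes. The nuclear RNAs Malat1 (0.55) and Neat1 (0.67) were among the higher genes, and the mitochondrial share of members was 1.52%, 1.39% and 1.30% in the E0771-Res1 mice and 1.36%, 1.85% and 1.77% in the E0771-Res2 mice. Their part in the calls was not tested. In the rest of M, 413 of 10741 genes changed in this comparison. Gpnmb differed there by 2.02, Ctsk by 2.18, Gdf15 by 0.92, Plk2 by 0.88, Ccl12 by −1.15 and Sdc4 by −0.90. The changes of these genes were therefore not particular to the members. Pmaip1 (0.35) and Rab32 (−0.11) differed less in the rest.

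E0771-Res2 members differed from E0771 members in 21 genes (0.382%), 14 higher (0.255%) and 7 lower (0.127%). Plk2 stood at 108 and 94.8 CPM in E0771 and at 281, 232 and 273 in E0771-Res2 (1.38 ± 0.18 SE, adjusted p = 0.00144). Il1r2, the decoy receptor of interleukin 1, stood at 222 and 151 against 64.2, 52.6 and 41.3 (−1.79 ± 0.24), and neither gene's groups overlapped, as for 29.3% of all genes. Ifitm1 (−2.08), Lmnb1 (−1.09), Thbs1 (−0.99), Cd74 (−0.86) and H2-Aa (−0.96) were also lower, and Klf2 (1.69), Lpl (1.55), Gdf15 (1.55), Ctsk (1.71), Gpnmb (1.31), Egr2 (1.80), Tmx4 (2.20) and 2810013P06Rik (2.50) higher. Dissociation stress genes had 1 of 15 called higher in this comparison (Dusp1), 14 of 15 with a positive value, 8 at an unadjusted p under 0.05 and a median of 0.56. Over all 5499 genes 2815 had a positive value, 552 were at an unadjusted p under 0.05 and the median was 0.01. The mitochondrial share of the members was 1.20% and 1.38% in the E0771 mice and 1.36%, 1.85% and 1.77% in the E0771-Res2 mice, and the part of either in the calls was not tested. The comparisons of E0771-Res2 with E0771 and with E0771-Res1, which share the E0771-Res2 mice, both called 9 genes: Cd74 and H2-Aa, lower in each, and Gpnmb, Ctsk, Gdf15, Plk2, Slfn4, Malat1 and 2810013P06Rik, higher in each. Of the 21 genes, 5 passed without E0771-Res2 replicate 2 and 6 without replicate 3. Without E0771 mouse 1, 13 genes passed, of which 8 were among the 21, and without E0771 mouse 3, 2 passed, of which 1 was among them, but each of these fits has a single E0771 mouse that is assumed to vary like the other groups. Cd74, Gdf15 and Plk2 passed in 20 of 21 other settings, Ctsk in 9 and Egr2 in 8. In the rest of M, 541 of 10741 genes changed in this comparison. Gpnmb differed there by 2.23, Ctsk by 2.31, Gdf15 by 1.51, Plk2 by 1.18 and Il1r2 by −1.93, so these changes were not particular to the members. Egr2 (0.21) and Slfn4 (0.22) differed less in the rest.

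**Figure D4:**
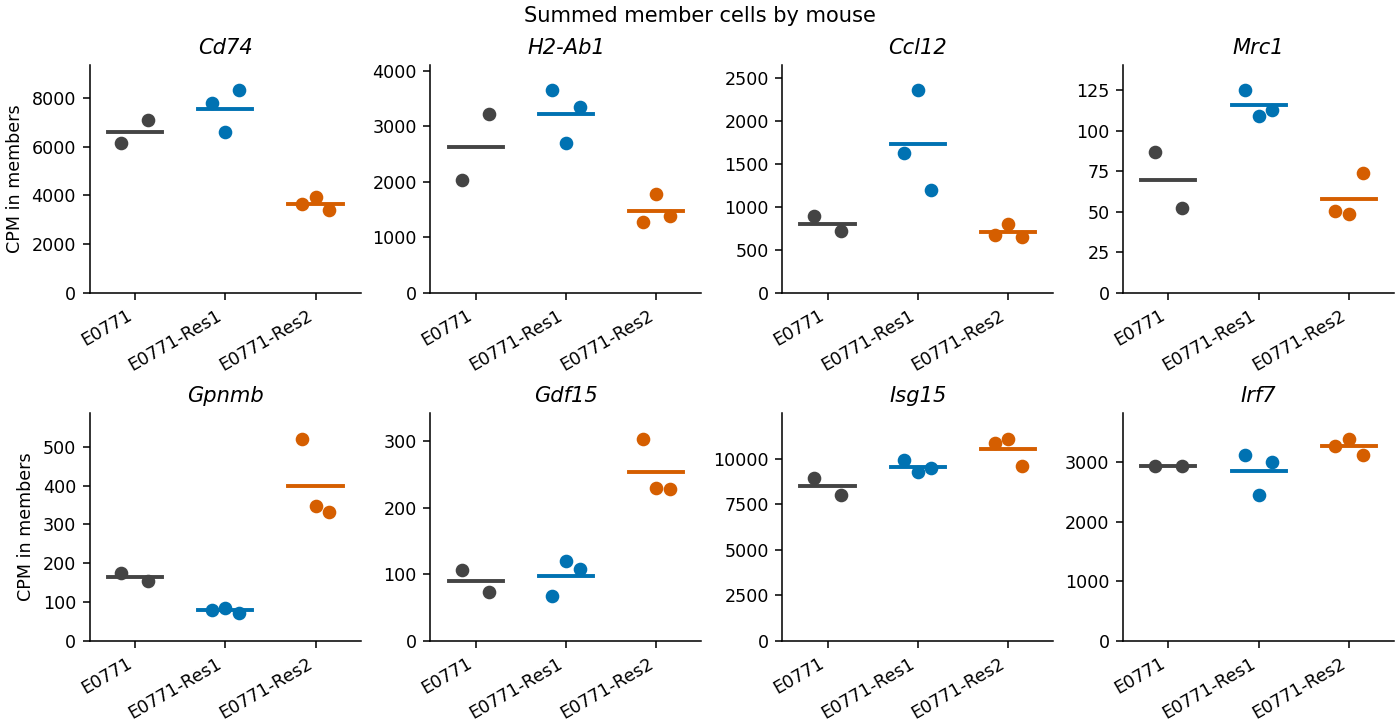
CPM of 8 genes in the summed members, 1 point per mouse and a bar at each group's mean, with axes from 0. Cd74, H2-Ab1, Ccl12 and Mrc1 are lower in E0771-Res2 than in E0771-Res1 and Gpnmb and Gdf15 higher, without overlap, while Isg15 and Irf7 did not pass the test.

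A last fit asked whether the distance between members and rest differed among the 3 tumors, with both parts of each mouse paired. As the score limit was common to all mice, members could differ less than the rest in genes that vary with the score. The distance differed for 9 of 9181 genes (0.098%), of which Gbp2, Cxcl10 and Cxcl9 stand on the interferon lists and Calhm6 is also known to be induced by interferons. The count was 63 for the highest 5% of M, 60 with other score genes, 24 without E0771-Res1 replicate 3 and 6 for the highest 12%. Gbp2 stood at 852 and 656 CPM in members of the E0771 mice, 745, 665 and 1055 in those of E0771-Res1, and 777, 683 and 572 for E0771-Res2, which overlap. In the rest of M it stood at 293 and 248, at 130, 134 and 213, and at 111, 113 and 112, where both E0771 mice were above all 6 resistant mice. The distance was larger by 0.91 in E0771-Res1 and by 1.11 in E0771-Res2 than in E0771 (adjusted p = 0.00201), and this gene passed in 19 of 19 other settings. Of the other genes named here, Calhm6, Cxcl10 and Rgcc passed in 18, Hmox1 in 16, Cxcl9 in 15, Hebp1 in 13 and Egr1 in 10.

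Calhm6, a channel gene linked to macrophage and NK cell contact, behaved alike: 735 and 675 CPM in E0771 members, 870, 695 and 834 for E0771-Res1 and 764, 789 and 648 for E0771-Res2, against 226 and 279, 143, 102 and 155, and 161, 148 and 174 in the rest (1.10 and 0.70, adjusted p = 0.00488). Cxcl10 was further from the rest by 0.36 and 0.98 (adjusted p = 0.00431). Cxcl9 in E0771 mouse 1 was the same in members and rest (494 CPM each), and its distance was larger by 1.54 and 1.32 in the resistant tumors (adjusted p = 0.0155). Over the type I effector list 67 of 70 genes had a larger distance in each resistant line than in E0771, against 4853 and 5126 of 9181 genes in all, with medians of 0.40 and 0.33 against 0.03 and 0.06 over all genes, and 1 gene, Cxcl10, passed. For 21 interferon gamma-induced genes the counts were 18 and 20 (both medians 0.67), and 2 passed. For 21 lymphocyte ligands and cytokines they were 18 and 20 (0.36 and 0.47), and for 24 NF-kB genes 16 and 23 (0.15 and 0.38). Lipid-associated genes went the other way, with 6 of 20 larger in each line (−0.26 and −0.38). For the type I effectors, the medians against E0771 were −0.40 (E0771-Res1) and −0.37 (E0771-Res2) in the rest of M. In members, which 1 score limit chose, they were 0.04 and 0.02. The distances of that list are thus not a result separate from its lower values in the rest. The genes of a list were counted over the same mice and are not independent observations.

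Other genes that passed stand on no interferon list. The heme oxygenase gene Hmox1 stood at 517 and 433 CPM in E0771 members against 255 and 187 in the rest, while in the resistant tumors members were below the rest in 6 of 6 mice (distances of −1.73 and −1.87 relative to E0771, adjusted p = 0.00426). Rgcc, a cell cycle regulator, and Hebp1, a heme-binding protein, were also higher in members than in rest in both E0771 mice, Rgcc likewise in E0771-Res2 mice 1 and 2 (0.99 and 0.09 on the log2 scale), and Egr1, an immediate early gene, was above the rest in the 3 E0771-Res2 mice and, at 73.5 against 71.9 CPM, in E0771 mouse 1.

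**Figure D5:**
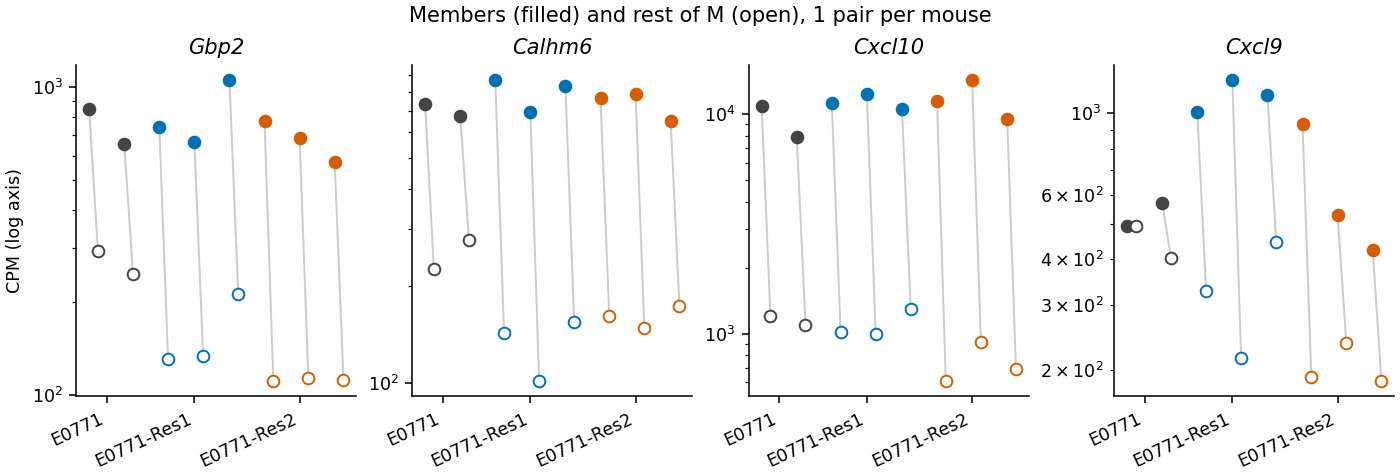
CPM (log axis) of 4 interferon-induced genes in members (filled) and rest of M (open), 1 joined pair per mouse, by tumor group. For Gbp2 and Calhm6 the groups overlap in members, which 1 score limit chose in all mice, while the rest is higher in both E0771 mice, and for Cxcl9 the pair of E0771 mouse 1 coincides at 494 CPM.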

How the data were processed

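CD45+ cells of 8 tumors were multiplexed by mouse and sequenced on the 10x 3′ platform. The authors deposited UMI counts per gene and cell from Cell Ranger 6.1.2 (file headers) on mm10, with Seurat also named in the submitters' processing notes, and no cell annotation. The 3 E0771-Res1 and 3 E0771-Res2 mice and 2 E0771 mice were used, and E0771 mouse 2 was not analysed here. The members and gene lists were chosen with earlier results of these data known.

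Counts were summed per mouse over members and over the rest of M (8637 of 32285 genes left out: mitochondrially encoded, ribosomal protein and Gm genes and the 4 score genes). CPM with a prior count of 2 gave the members-to-rest differences. Tumors were compared with edgeR 4.0.16 (R 4.3.3; TMM, filterByExpr, quasi-likelihood F test, Benjamini-Hochberg adjustment, threshold 0.05), with DESeq2 1.42.0 as an alternative, and shares by exact permutation over mice (scipy 1.17.1). On counts of 5499 genes simulated for E0771-Res2 against E0771, the fit recovered 84% of 200 genes given a log2 change of 1.5. The 200 were drawn from the more abundant genes only, so recovery among genes with low counts was not measured. Scrublet (scanpy 1.11.5, Python 3.11.15) marked 53 of 11430 cells (0.464%) at its automatic threshold and was taken not to have worked, so doublets were kept, and the highest 5% of scores were left out as an alternative (3 of 670 members and 458 of the 7705 other cells).

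Named genes were examples from the lists, the 15 largest members-to-rest differences per direction with the same sign in 8 mice and a mean of at least 50 CPM, the 8 largest called changes per direction between tumors with no overlap and a mean log2 CPM from 5 up, and the 8 smallest adjusted p of the 3-group test. Counts of replicates differed by more than sampling noise in every pair of mice of a group (chi-square divided by its degrees of freedom, 2.42 to 3.12). The replicate numbers named different mice and did not pair them (correlations of −0.07 to 0.07 between deviations over 4105 genes). Alternatives covered the share of M taken, thinning to 2000 UMIs, other score genes, cells of other types, normalization, filtering, the test, the replicate block and leaving out each mouse. Some genes that entered the fits and counts are not reported here.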

Additional observations from a re-analysis of the deposited data

Results flagged for a closer look

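Among 62 sets of 8 mice examined, 6 had one mouse far from the others, where chance marks about 1 in 20 groups. In members minus rest the lowest mouse stood apart at 2.56 for Rilpl1, −4.16 for Rab3il1, −3.90 for Mtss1, −2.69 for P2ry6 and 0.326 for Ly6c2, and at −0.634 for the median of the other chemokine list.

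The distance between members and rest differed among the 3 tumors for 9 genes by edgeR, with adjusted p, for those reported here, of 0.00201 for Gbp2, 0.00426 for Hmox1, 0.00431 for Cxcl10, 0.00488 for Calhm6 and Rgcc, 0.0155 for Cxcl9, 0.0237 for Hebp1 and 0.0482 for Egr1.

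One member held 22 Ifnb1 UMIs, in a gene whose counts were too low for the 3 comparisons of tumors in members. In the 3-group test of the distance between members and rest Ifnb1 had an adjusted p of 0.735 by edgeR.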

How the results depend on the processing

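The median difference of the type I interferon list between members and rest kept its sign and size under each of 21 alternatives (1.56 to 1.72). C1qa turned from −1.23 to 0.304 among cells below the median of C1q, an alternative chosen after the data were seen that picks cells by C1qa itself and so says nothing about its difference. Leaving out 1 mouse at a time, the difference in the share of members ranged from −4.86 to 1.63 percentage points for resistant against E0771 tumors, from −4.71 to 1.62 for E0771-Res1 against E0771, from −5.00 to 1.64 for E0771-Res2 against E0771, and from −0.295 to 0.222 for E0771-Res2 against E0771-Res1, where it was 0.0366 without E0771-Res2 replicate 1. With the highest 5% of M, E0771-Res2 exceeded E0771 by 0.0447 and E0771-Res1 by 0.178 points, and with other score genes E0771-Res2 exceeded E0771-Res1 by 0.0284.

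Counts of genes depended more on the settings than the direction of single genes did. Leaving out 1 mouse at a time gave 0 to 4 genes for E0771-Res1 against E0771 (1 with all mice), 2 to 29 for E0771-Res2 against E0771 (21), 10 to 29 for E0771-Res2 against E0771-Res1 (29, with 10, 14 and 18 without E0771-Res2 replicates 2, 3 and 1) and 6 to 24 for the distance between members and rest (9). In the same order the counts were 1, 9, 17 and 63 for the highest 5% of M, 0, 55, 38 and 6 for the highest 12%, 0, 29, 32 and 17 after thinning, 3, 21, 13 and 60 with other score genes, 1, 10, 23 and 13 without the highest doublet scores, 0, 37, 30 and 24 without cells of other types, 1, 9, 25 and 31 when Csf3r was not used to find those cells (chosen after the data were seen), 0, 15, 37 and 28 for the highest 8% within each mouse, and 49, 105, 127 and 87 without a filter on low counts. With mitochondrial, ribosomal protein and Gm genes kept, also chosen after the data were seen, 15 genes differed in the distance. DESeq2 called 1, 33 and 31 genes between tumors. With the replicate block 1, 27 and 40 genes were called, of which 1, 16 and 28 were among the main calls, and the numbers did not pair the mice. The causes were not tested. Members numbered as few as 38 in a mouse, which limits the counts behind each sum.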
